A study of Mus musculus with 12 samples.

Results

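Early genes with names outside the Fos, Jun, and Egr families, 10 in number, were followed across all samples of the count table: *Arc*, *Ier2*, *Ier3*, *Ier5*, *Csrnp1*, *Btg2*, *Myc*, *Nr4a1*, *Nr4a2*, and *Nr4a3*. They were selected by gene symbol, and all 10 of 10 were found among the 51490 genes of the table and among the 15037 genes with enough counts to be tested. The samples were iMEPM cells, an immortalized line of mouse embryonic palatal mesenchyme cells derived from a male Cdkn2a-/- embryo, so that every group lacked *Cdkn2a*. Cells stably expressed either a scramble shRNA or an shRNA against *Srsf3* (shSrsf3), which encodes an SR protein that binds RNA and regulates splicing. Each line either received no ligand (-PDGF-AA) or was exposed for 1 h to PDGF-AA at 10 ng/mL (+PDGF-AA), with 3 biological replicates in each of the 4 groups. Serum starvation preceded ligand treatment in the study's general protocol, but its use in these cultures is not stated, so that the serum condition behind the unstimulated levels is not known here. Each shRNA was represented by 1 sorted, lentivirally transduced line, used between passages 9 and 20, so that an effect of the shRNA and a property of its line cannot be told apart.

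Early genes are transcribed within minutes to an hour of a stimulus, largely through transcription factors that are already present and are activated by kinases such as ERK. PDGF-AA binds the receptor PDGFRα, a receptor tyrosine kinase required in the craniofacial mesenchyme that gives rise to the palate. The 10 genes encode nuclear receptors (*Nr4a1*, *Nr4a2*, *Nr4a3*), other transcription regulators (*Csrnp1*, *Myc*), small nuclear response proteins (*Ier2*, *Ier5*), a survival-related protein (*Ier3*), an antiproliferative protein that promotes mRNA deadenylation (*Btg2*), and *Arc*, best known in neurons, where it regulates glutamate receptor trafficking.

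Because early genes are often induced through shared promoter elements, the 250 bases before the start of each gene's canonical transcript (GRCm39) were searched on both strands. The letters TGACGTCA, the cAMP response element (CRE) bound by CREB, were found in 2 of the 10 windows and in 1.7% of 21757 protein-coding promoters of the same length. The shorter CRE half-site TGACG, which also lies within each full CRE, was found in 4 of the 10 windows and in 18% of all promoters. The AP-1 letters TGANTCA (6.18% of all promoters), the NR4A-binding letters AAAGGTCA (1.2%), and the CArG box of serum response factor (1.4%) were found in 0 of the 10. The TATA letters TATAAA (11.9% of all promoters) were present in *Myc* and *Nr4a1*, in both on the strand opposite to the gene. A match or its absence is a description of these windows only, and other annotated starts of the genes were not searched. The windows of the 4 genes with a CRE or half-site are printed with that of *Arc*, one of the 2 genes with the largest changes, in which none of these letters was found. They are written 5′ to 3′ on the strand of the gene, from chr15:101164410-101164659 (+) for *Nr4a1*, chr4:48044903-48045152 (+) for *Nr4a3*, chr8:85389484-85389733 (-) for *Ier2*, chr1:134006859-134007108 (-) for *Btg2*, and chr15:74544420-74544669 (-) for *Arc*, with capitals marking matches. The CRE spanned bases -43 to -36 before the start of *Ier2* and bases -201 to -194 before that of *Btg2*.
Nr4a1: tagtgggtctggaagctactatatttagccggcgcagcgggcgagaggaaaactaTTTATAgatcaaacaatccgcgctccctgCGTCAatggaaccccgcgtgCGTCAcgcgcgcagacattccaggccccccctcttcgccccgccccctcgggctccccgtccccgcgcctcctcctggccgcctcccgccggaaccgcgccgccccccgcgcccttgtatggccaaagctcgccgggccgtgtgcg
Nr4a3: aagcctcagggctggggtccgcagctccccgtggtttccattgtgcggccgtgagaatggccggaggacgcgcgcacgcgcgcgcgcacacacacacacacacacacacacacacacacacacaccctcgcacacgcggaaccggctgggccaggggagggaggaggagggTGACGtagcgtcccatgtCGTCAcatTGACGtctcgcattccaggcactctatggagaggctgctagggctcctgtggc
Ier2: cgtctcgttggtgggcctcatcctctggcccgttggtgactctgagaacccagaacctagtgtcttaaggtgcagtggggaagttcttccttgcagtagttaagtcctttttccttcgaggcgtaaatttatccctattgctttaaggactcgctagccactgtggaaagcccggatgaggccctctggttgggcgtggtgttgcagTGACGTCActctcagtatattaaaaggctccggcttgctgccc
Btg2: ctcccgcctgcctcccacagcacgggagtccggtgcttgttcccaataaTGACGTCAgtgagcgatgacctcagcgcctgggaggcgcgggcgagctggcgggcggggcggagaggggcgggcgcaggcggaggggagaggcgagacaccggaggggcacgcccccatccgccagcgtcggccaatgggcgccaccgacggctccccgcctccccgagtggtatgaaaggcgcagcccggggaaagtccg
Arc: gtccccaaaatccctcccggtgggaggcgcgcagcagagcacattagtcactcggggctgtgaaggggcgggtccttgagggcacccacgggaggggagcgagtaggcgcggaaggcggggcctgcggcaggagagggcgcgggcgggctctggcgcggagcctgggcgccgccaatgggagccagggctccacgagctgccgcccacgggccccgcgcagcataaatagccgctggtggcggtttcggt

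The totals of the libraries were between 30958870 and 76123207 estimated counts, with the 3 shSrsf3 +PDGF-AA libraries among the shallowest. *Srsf3* itself was at 206 ± 6.59 CPM (read counts scaled to a common library total; SD, n = 3) in unstimulated scramble samples and at 162 ± 1.46 CPM in unstimulated samples of the shSrsf3 line, a log2 fold change of -0.34 (SE 0.04, edgeR adjusted p = 7.95e-06). The study reported a larger decrease of Srsf3 protein in the shSrsf3 line by western blot, a measure that counts of RNA do not give. Of 12 palatal mesenchyme markers, 11 were detected and *Tbx22* was at 0 in every library. Their summed levels were 35100 to 36820 CPM in scramble -PDGF-AA and 31400 to 33480 CPM in shSrsf3 -PDGF-AA samples. Summed markers of epithelium, endothelium, and immune cells were at or under 6.15 CPM in every library, with *Tie1* and *Cd3e* at 0, and erythroid markers were at 0. Summed neuron and glia markers were 20.7 to 32.3 CPM, mostly from *Tubb3*. In the scramble line, unstimulated replicates 1 and 2 and stimulated replicate 2 had lower rates of mapping to transcripts than the other 9 libraries. Values with a model term for these 3 libraries, without them, or both are given where a call depended on them. They are also given for some of the largest changes. Without these 3 libraries, replicate 3 is the only scramble -PDGF-AA library, so that comparisons with this group are then given as fold changes only. As the samples were bulk cultures, fewer cells expressing a gene and less RNA per cell cannot be told apart.

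Counts of the 10 genes sufficed for all of them to be measured in every library. The lowest were those of *Nr4a3*, at 92 to 246 counts per library, and the highest those of *Nr4a1*, at 5053 to 24839. Together the 10 genes took 0.0524% to 0.0602% of the counts in scramble -PDGF-AA libraries and 0.122% to 0.124% in shSrsf3 +PDGF-AA libraries, with the other groups between these ranges. In GENCODE M39, 0 of their 31-base sequences were shared between any pair of the 10 genes, and the largest share found in transcripts of other genes was 2.14%, for *Csrnp1*. Antisense noncoding genes overlap *Ier3*, *Csrnp1*, *Btg2*, *Myc*, *Nr4a1*, and *Nr4a3*. Stranded libraries can tell such reads apart, but whether strand was used in the counting is not stated here. Noncoding genes on the same strand overlap *Ier5* and *Nr4a1*, so that some counts of *Ier5* and *Nr4a1* could belong to the overlapping transcripts. Overlaps were taken over whole gene spans, introns included.

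Levels were compared between genes as CPM per kilobase of the canonical transcript. In scramble -PDGF-AA samples, *Myc* was highest (82.2 CPM per kilobase), followed by *Ier3* (53.6), *Nr4a1* (45.1), *Ier5* (34.7), *Ier2* (19.7), *Btg2* (9.86), *Arc* (4.18), *Csrnp1* (3.33), *Nr4a2* (2.11), and *Nr4a3* (0.391). The ranges of neighbors in this order overlapped between *Ier3* and *Nr4a1*, between *Nr4a1* and *Ier5*, and between *Arc* and *Csrnp1*, and those of the other neighbors did not. In shSrsf3 +PDGF-AA samples, *Nr4a1* was highest at 259 CPM per kilobase, above *Ier3* (69.6) and *Myc* (66.6), whose ranges overlapped. *Nr4a2* and *Nr4a3* remained the lowest of the 10 in all groups, at no more than 2.66 and 0.765 CPM per kilobase on average. These values rest on 1 transcript length per gene, and isoform use was not measured here.

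**Figure D1:**
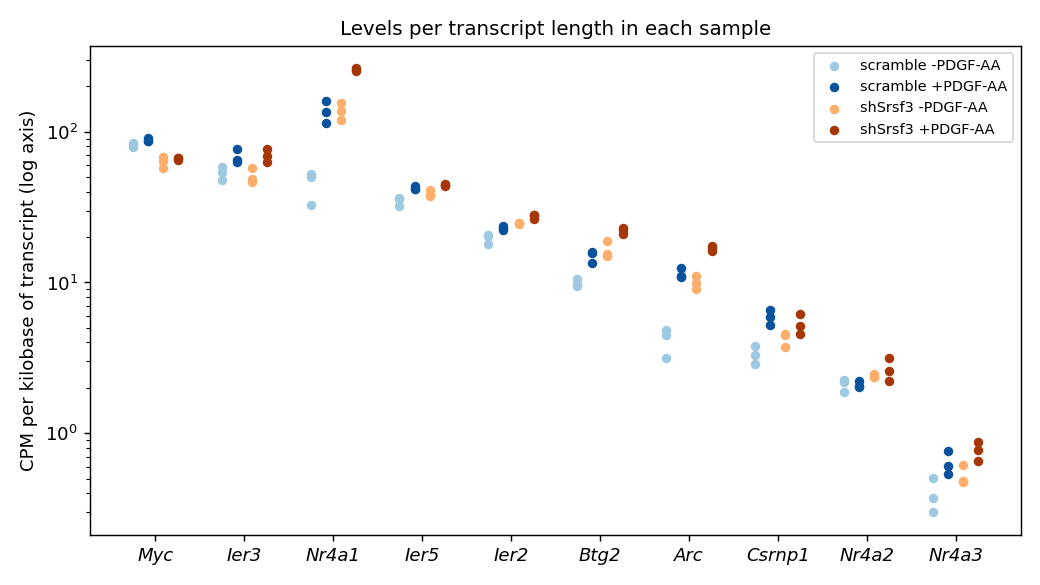
CPM per kilobase of canonical transcript (log axis) of each gene in each of the 12 samples, colored by group, with genes ordered by their mean in scramble -PDGF-AA samples. *Nr4a1* moves from behind *Myc* and *Ier3*, at 45.1 CPM per kilobase, to the highest level, 259, in shSrsf3 +PDGF-AA samples, while *Nr4a3* is lowest throughout.

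The response of scramble cells to PDGF-AA was examined first. *Nr4a1* and *Arc* had the largest changes, about 3-fold, and *Csrnp1*, *Btg2*, *Ier5*, and *Ier2* rose by less. In all, 6 of the 10 genes were higher upon ligand stimulation and 0 were lower at an adjusted p of 0.05 or less, where 2.00% of all tested genes were higher. With the 2-fold minimum applied in the study, 2 of the 10 passed, and 0.200% of all genes. The lowest +PDGF-AA sample exceeded the highest -PDGF-AA sample for 9 of the 10 genes, and for 8.92% of all genes. The median log2 fold change was 0.48 for the 10 genes and -0.01 for all genes.

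*Nr4a1*, an orphan nuclear receptor that binds DNA without a known ligand, was at 133, 128, and 83.8 CPM in scramble -PDGF-AA replicates 1, 2, and 3, and at 292, 405, and 344 CPM in the +PDGF-AA replicates. Every stimulated sample lay above every unstimulated one, and the spread within each group was smaller than the gap between them. The log2 fold change was 1.59 (3.02-fold, SE 0.16, adjusted p = 6.09e-05), which ranked 25 among all genes by p. *Nr4a3*, whose product has a closely related DNA-binding domain, was at 2.88, 2.12, and 1.71 CPM without and 3.06, 4.36, and 3.49 CPM with ligand. The groups did not overlap, but the log2 fold change of 0.72 (SE 0.19) missed the threshold (adjusted p = 0.0548). It passed without scramble -PDGF-AA replicate 1 (0.94, adjusted p = 0.0188), with a model term for the 3 libraries of lower mapping rate (0.87, adjusted p = 0.00369), and in DESeq2 (adjusted p = 0.01). Without those 3 libraries the log2 fold change of *Nr4a3* was 0.94. *Nr4a2*, the remaining receptor of the family, was at 10.4, 10.7, and 8.98 CPM without and 9.70, 10.5, and 9.80 CPM with ligand. Its groups overlapped and the 95% interval of its log2 fold change was -0.22 to 0.22.

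*Arc* was at 14.8, 13.8, and 9.71 CPM in scramble -PDGF-AA samples and at 33.1, 38.2, and 33.7 CPM in scramble +PDGF-AA samples. The groups were well separated, with the lowest unstimulated value in replicate 3, as for *Nr4a1*. The log2 fold change was 1.47 (2.77-fold, SE 0.12, adjusted p = 1.40e-05), and *Arc* ranked 12 among all genes by p. Its fold change was 1.59 on the log2 scale with the term for lower mapping rate and 1.78 without the 3 libraries. *Csrnp1*, which encodes a cysteine- and serine-rich nuclear protein, was at 11.3, 9.72, and 8.54 CPM without and 15.5, 19.4, and 17.5 CPM with ligand. It rose by a log2 fold change of 0.84 (1.79-fold, SE 0.12, adjusted p = 0.00208), with no overlap between groups. *Btg2* was at 28.7, 25.98, and 26.4 CPM without and 37.1, 43.7, and 43.1 CPM with ligand, a log2 fold change of 0.61 (SE 0.08, adjusted p = 0.00112).

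The *Ier* genes moved by smaller amounts. *Ier5*, whose product regulates the heat shock factor HSF1, was at 117, 118, and 105.5 CPM without and 137, 144, and 137 CPM with ligand (log2 fold change 0.30, SE 0.05, adjusted p = 0.00395). *Ier2* was at 31.6, 30.8, and 27.6 CPM without and 34.9, 36.1, and 33.8 CPM with ligand (log2 fold change 0.22, SE 0.05, adjusted p = 0.0234). Both sets of groups were separate, although the call of *Ier2* was lost without scramble +PDGF-AA replicate 1 (adjusted p = 0.0761) or replicate 2 (adjusted p = 0.0572). *Ier3* was at 61.7, 66.9, and 54.4 CPM without and 71.8, 87.4, and 73.7 CPM with ligand, and its log2 fold change of 0.35 (SE 0.10, adjusted p = 0.0794) did not pass. DESeq2 called *Ier3* (0.36, adjusted p = 0.00842), as did a model with a term for the 3 libraries of lower mapping rate (0.43, adjusted p = 0.00376). Without those libraries the log2 fold change of *Ier3* was 0.42. *Myc*, a transcription factor that binds DNA with MAX, was at 200.4, 198, and 188 CPM without and 207, 207, and 217 CPM with ligand. Its groups did not overlap, but the log2 fold change of 0.11 (95% interval -0.00 to 0.22) did not pass (adjusted p = 0.293).

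**Figure D2:**
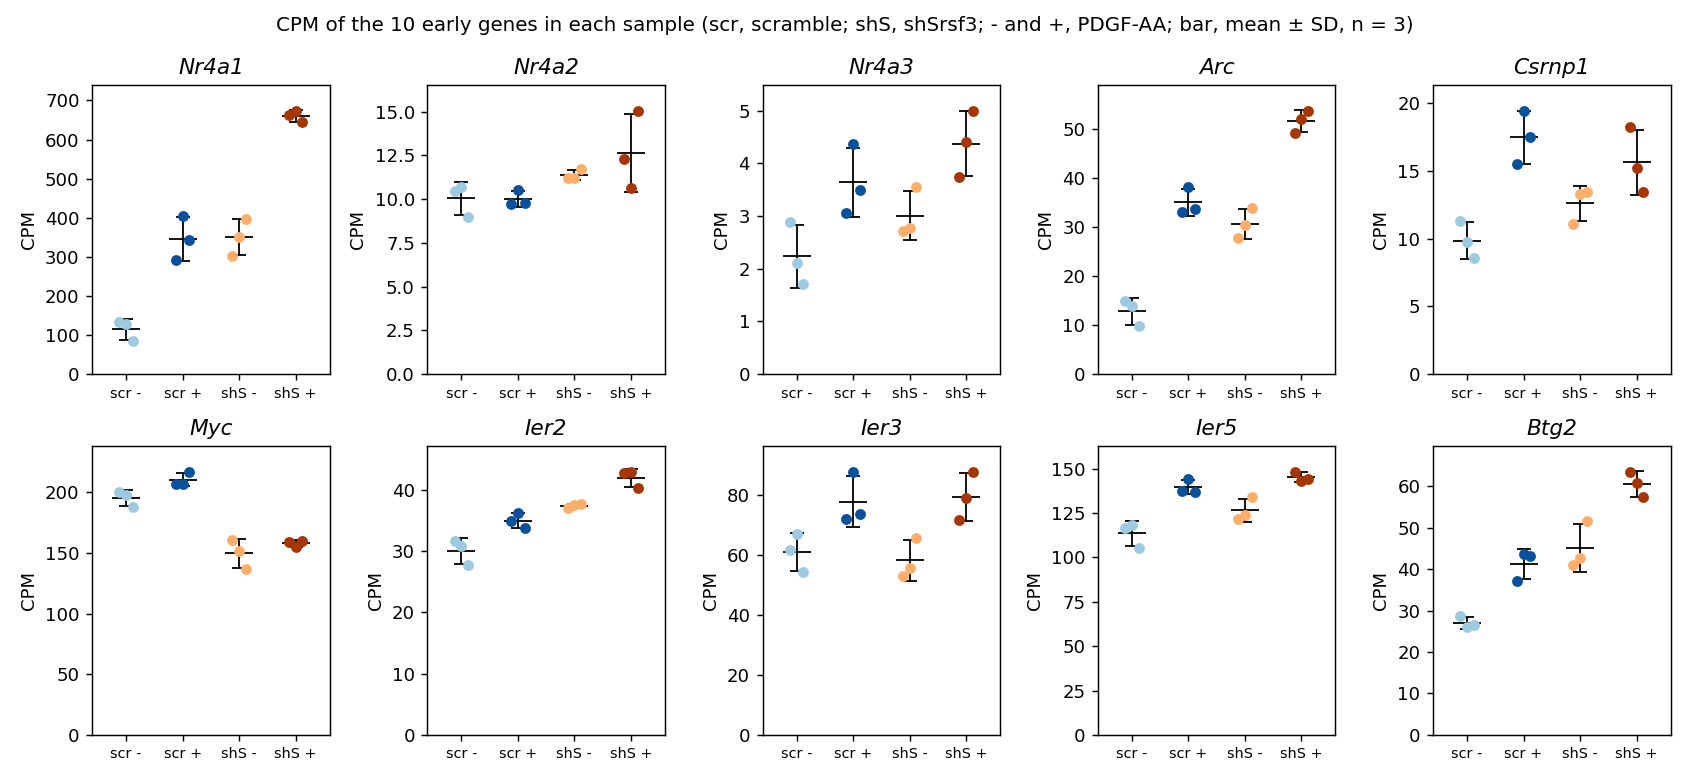
CPM (linear axis from 0) of each gene in the 3 replicates of each group, with the mean and SD as bars. *Arc* and *Nr4a1* step up with ligand in both lines and with the *Srsf3* shRNA, whereas *Myc* is lower in all shSrsf3 samples, between 137 and 161 CPM, than in any scramble sample.

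The same comparison was made in shSrsf3 cells, which share no samples with the scramble comparison. *Nr4a1*, *Arc*, and *Btg2* were higher upon ligand stimulation, 3 of the 10 genes, and 0 were lower, where 0.426% of all genes were higher. None of the 10 reached 2-fold in addition, as did 0.0399% of all genes. For 7 of the 10 genes the groups did not overlap, higher with ligand, as for 8.59% of all genes. The median log2 fold change was 0.38 for the 10 genes and -0.00 for all genes.

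*Nr4a1* was at 303, 351, and 396 CPM in shSrsf3 -PDGF-AA and at 664, 672, and 644 CPM in shSrsf3 +PDGF-AA replicates, a log2 fold change of 0.92 (1.89-fold, SE 0.15, adjusted p = 0.0128). *Arc* was at 27.8, 30.4, and 33.9 CPM without and 49.2, 52.0, and 53.6 CPM with ligand (log2 fold change 0.75, 1.69-fold, SE 0.11, adjusted p = 0.00683). *Btg2* was at 40.9, 42.7, and 51.6 CPM without and 63.4, 60.9, and 57.3 CPM with ligand (log2 fold change 0.43, SE 0.08, adjusted p = 0.0333). In each of the 3 genes all stimulated samples lay above all unstimulated ones, and the -PDGF-AA sample nearest to the stimulated group was replicate 3. These calls rested on few libraries. Without shSrsf3 -PDGF-AA replicate 1 the adjusted p was 0.106 for *Nr4a1*, 0.0661 for *Arc*, and 0.221 for *Btg2*, and without replicate 2 of that group it was 0.0786, 0.053, and 0.19, so that 0 of the 10 genes passed. Without shSrsf3 +PDGF-AA replicate 2, only *Arc* passed, with 0.061 for *Nr4a1* and 0.134 for *Btg2*. *Btg2* also missed the threshold without replicate 1 (0.138) or 3 (0.0585) of that group or without scramble +PDGF-AA replicate 3 (0.053). The percentage of mitochondrial counts was 2.80 to 2.98 in shSrsf3 -PDGF-AA and 3.02 to 3.44 in shSrsf3 +PDGF-AA libraries, and its part in these differences was not tested.

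The other 7 genes did not pass in shSrsf3 cells. *Ier3*, which has been linked to cell survival and ERK signaling, was at 53.1, 55.5, and 65.7 CPM without and 71.4, 78.8, and 87.6 CPM with ligand (log2 fold change 0.45, SE 0.10, adjusted p = 0.0808). It passed in DESeq2 (adjusted p = 7.51e-04), with the term for mapping rate (adjusted p = 0.00551), and without those 3 libraries (adjusted p = 0.0115). It also passed without scramble -PDGF-AA replicate 3 (adjusted p = 0.0339), without shSrsf3 -PDGF-AA replicate 3 (adjusted p = 0.0375), and after thinning to equal depth (adjusted p = 0.0492). *Ier5* was at 122, 124, and 134 CPM without and 148, 143, and 145 CPM with ligand (0.20, adjusted p = 0.115), and passed by DESeq2 (0.0066), with the mapping term (0.0118), without the 3 libraries (0.0208), and without scramble -PDGF-AA replicate 3 (0.0263). *Ier2* was at 37.0, 37.6, and 37.6 CPM without and 42.6, 42.9, and 40.2 CPM with ligand (0.17, adjusted p = 0.222), and passed with the mapping term (0.0427). It did not pass without the 3 libraries, at a log2 fold change of 0.17. For these 3 genes, and for *Nr4a3* at 2.71, 2.76, and 3.54 against 3.74, 4.40, and 4.99 CPM (0.56, adjusted p = 0.309), the groups were separate. *Csrnp1* was at 11.1, 13.3, and 13.4 CPM without and 18.2, 15.2, and 13.4 CPM with ligand (0.32, adjusted p = 0.405). *Nr4a2* was at 11.2, 11.2, and 11.7 CPM without and 12.3, 10.6, and 15.03 CPM with ligand (0.15, adjusted p = 0.701). *Myc* was at 161, 151, and 137 CPM without and 159, 155, and 160.0 CPM with ligand (0.08, adjusted p = 0.699), and the groups of all 3 of these genes overlapped.

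**Figure D3:**
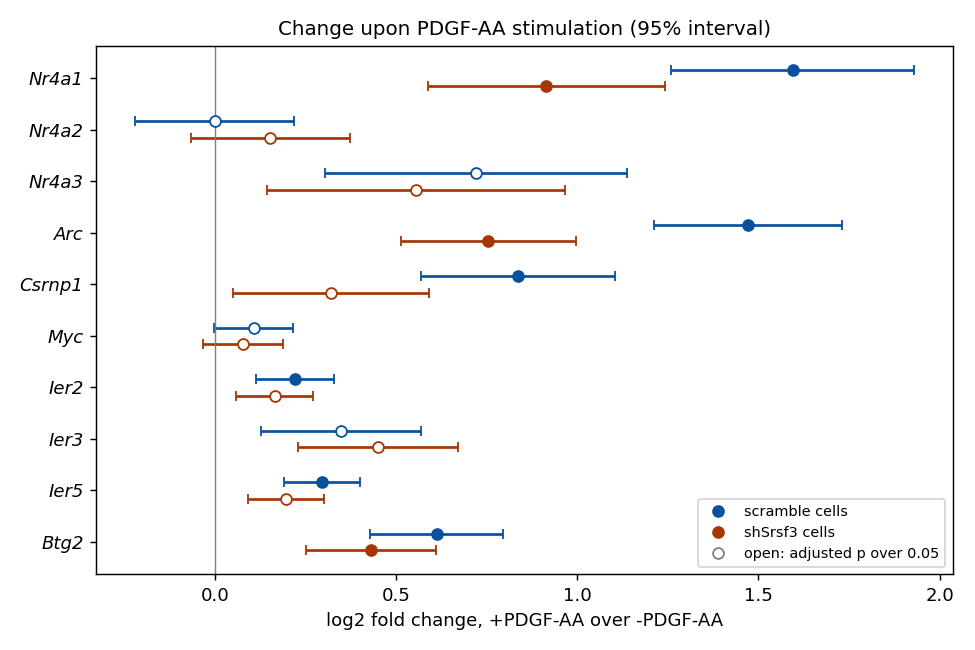
Log2 fold change of each gene upon PDGF-AA stimulation in scramble and shSrsf3 cells, with 95% intervals and open symbols for an adjusted p over 0.05. *Nr4a1* and *Arc* lie farthest to the right in both lines, at 1.59 and 1.47 in scramble and 0.92 and 0.75 in shSrsf3 cells.

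Whether the ligand response differed between the lines was tested as an interaction. The fold change was smaller in shSrsf3 than in scramble cells for 8 of the 10 genes, for 41 of 60 other early genes (68.3%), and for 48.4% of all genes, yet 0 of the 10 passed at an adjusted p of 0.05 in edgeR, where 0.0133% of all genes passed. At an unadjusted p under 0.05, 3 of the 10 were counted, *Arc*, *Nr4a1*, and *Csrnp1*, where 5.54% of all genes were. The difference in log2 fold change was -0.72 for *Arc* (95% interval -1.07 to -0.36, unadjusted p = 7.12e-04, adjusted p = 0.396). It was -0.68 for *Nr4a1* (95% interval -1.14 to -0.22, unadjusted p = 0.00712, adjusted p = 0.733). For *Csrnp1* it was -0.52 (SE 0.18, unadjusted p = 0.0116, adjusted p = 0.822). DESeq2 called 1 of the 10, *Arc* (adjusted p = 0.0173), and 0.107% of its genes. DESeq2 was not refitted for the libraries of lower mapping rate, in 2 of which *Arc* and *Nr4a1* had their highest scramble -PDGF-AA values. The edgeR result changed with the treatment of these libraries. With a term for these libraries, 2 of the 10 and 0.0532% of all genes passed, *Arc* (-0.83, adjusted p = 0.00681) and *Nr4a1* (-0.86, adjusted p = 0.0115). Without them, the difference was -1.02 for *Arc* and -1.0 for *Nr4a1*. Replicate 3, the lowest of its group for both genes, was then the only scramble -PDGF-AA library. It was also the only library of that group outside the term.

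**Figure D4:**
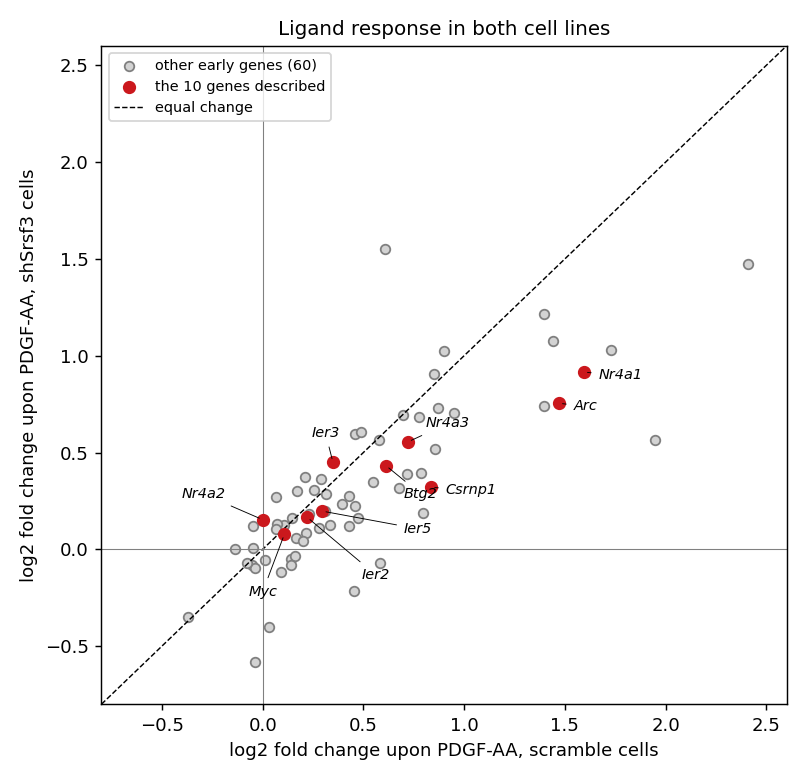
Log2 fold change upon PDGF-AA in scramble cells (horizontal) against that in shSrsf3 cells (vertical) for the 10 genes (red) and 60 other early genes (gray), with a dashed line of equal change. Of the 10 genes 8, and of the 60 others 41, lie below the line, and *Nr4a1* and *Arc* have the largest changes among the 10 on both axes.

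The effect of the *Srsf3* shRNA was then examined in unstimulated cells. *Nr4a1*, *Arc*, *Btg2*, *Csrnp1*, *Ier2*, and *Ier5* were higher in shSrsf3 samples and *Myc* was lower. At an adjusted p of 0.05 or less, 6 of the 10 genes were higher, against 22.2% of all genes, and 1 was lower, against 23.7%. With the 2-fold minimum, 2 of the 10 passed, *Nr4a1* and *Arc*, and 5.75% of all genes. The groups did not overlap for 6 genes that were higher (26.2% of all genes) and 1 that was lower (27.1%). The median log2 fold change was 0.34 for the 10 genes and -0.02 for all genes.

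Unstimulated shSrsf3 cells held *Nr4a1* at 303 to 396 CPM, above the 83.8 to 133 CPM of unstimulated scramble cells and within the 292 to 405 CPM of stimulated scramble cells. The log2 fold change between lines without ligand was 1.61 (3.05-fold, SE 0.16, adjusted p = 2.09e-06). *Arc* was at 27.8 to 33.9 CPM in unstimulated shSrsf3 cells, above the 9.71 to 14.8 CPM of unstimulated scramble cells, and 2 of its 3 values lay under the 33.1 to 38.2 CPM of stimulated scramble cells. Its log2 fold change between lines was 1.28 (2.42-fold, SE 0.12, adjusted p = 1.73e-06). *Btg2* was 40.9 to 51.6 CPM in shSrsf3 and 25.98 to 28.7 CPM in scramble samples, a log2 fold change of 0.73 (1.66-fold, SE 0.08, adjusted p = 1.16e-05). In all 3 genes the unstimulated shSrsf3 range overlapped that of stimulated scramble cells and lay wholly above that of unstimulated scramble cells.

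*Ier2* rose by a log2 fold change of 0.32 (SE 0.05, adjusted p = 1.60e-04) and *Ier5* by 0.16 (SE 0.05, adjusted p = 0.0179), the latter not called without shSrsf3 -PDGF-AA replicate 3 (adjusted p = 0.0639). The call of *Csrnp1* (0.36, SE 0.13, adjusted p = 0.0333) rested on overlapping groups, at 8.54 to 11.3 against 11.1 to 13.4 CPM. It was lost without scramble -PDGF-AA replicate 2 (0.0718) or 3 (0.111) and without shSrsf3 -PDGF-AA replicate 2 (0.11) or 3 (0.0898). *Myc* fell by 0.38 on the log2 scale (SE 0.05, adjusted p = 4.19e-05), from 188 to 200.4 CPM in scramble to 137 to 161 CPM in shSrsf3 samples, with no overlap. *Nr4a2* (0.18, adjusted p = 0.159), *Nr4a3* (0.43, adjusted p = 0.0901), and *Ier3* (-0.07, adjusted p = 0.596) did not pass. *Nr4a2* passed with the term for mapping rate (0.29, adjusted p = 0.037). *Nr4a3* passed with the term for mapping rate (0.74, adjusted p = 0.00491) and without scramble -PDGF-AA replicate 1 (0.65, adjusted p = 0.0178). Without the 3 libraries of lower mapping rate its log2 fold change was 0.79.

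With ligand present, the same contrast between lines gave 5 of the 10 genes higher (20.3% of all genes) and 1 lower (20.7%), and 0 with the 2-fold minimum (5.42%). The groups did not overlap for 5 genes that were higher (25.5% of all genes) and 1 that was lower (27.1%). *Nr4a1* was at 644 to 672 CPM in shSrsf3 and 292 to 405 CPM in scramble samples (log2 fold change 0.93, SE 0.15, adjusted p = 2.51e-04). *Arc* (0.56, SE 0.11, adjusted p = 0.00116), *Btg2* (0.55, SE 0.08, adjusted p = 1.27e-04), and *Ier2* (0.26, SE 0.05, adjusted p = 7.90e-04) were also higher, each with separate groups. *Nr4a2* was higher by 0.34 (SE 0.10, adjusted p = 0.0175), with its groups only just separate, at 9.70 to 10.5 against 10.6 to 15.03 CPM. That call was lost without scramble +PDGF-AA replicate 1 (0.0547) or 3 (0.0539) or shSrsf3 +PDGF-AA replicate 3 (0.0872). *Myc* fell by 0.41 on the log2 scale (SE 0.05, adjusted p = 2.30e-05), from 207 to 217 CPM to 155 to 160.0 CPM. *Ier3* (0.03, adjusted p = 0.847), *Ier5* (0.06, adjusted p = 0.38), *Nr4a3* (0.26, adjusted p = 0.287), and *Csrnp1* (-0.16, adjusted p = 0.34) did not pass, although *Nr4a3* did with the mapping term (0.43, adjusted p = 0.0334) and without the 3 libraries (0.41, adjusted p = 0.0467). The median log2 fold change was 0.26 for the 10 genes and -0.01 for all genes.

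Heat shock genes, which also respond to handling, differed in part between the lines. Of 8 such genes, 4 were higher (22.2% of all genes), 1, *Hspe1*, was lower (23.7%), and 3 did not pass in shSrsf3 cells without ligand. Their summed level was 4286 to 4451 CPM in scramble -PDGF-AA and 4986 to 5100 CPM in shSrsf3 -PDGF-AA samples. With ligand it was 4299 to 4692 CPM in scramble and 4947 to 5053 CPM in shSrsf3 samples, with 4 higher (20.3% of all genes), 0 lower (20.7%), and 4 that did not pass. Cell type markers differed between the lines as well. Without ligand, 7 of 11 tested palatal mesenchyme markers were lower in shSrsf3 cells (23.7% of all genes) and 2 were higher (22.2%). Of the 7, *Alx1* (log2 fold change -1.03) and *Pdgfra* (-0.53) had the smallest adjusted p. The 2 higher markers were *Vim* (0.25) and *Twist2* (0.55). The endothelial genes *Cdh5* (2.33) and *Kdr* (1.24) were higher, with summed endothelial markers of 0.895 to 1.22 CPM in scramble and 2.14 to 2.43 CPM in shSrsf3 samples. The epithelial gene *Cdh1* (-2.24) and the neuronal gene *Tubb3* (-0.57) were lower. The part of these genes and of the heat shock genes in the differences of the early genes between lines was not tested.

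**Figure D5:**
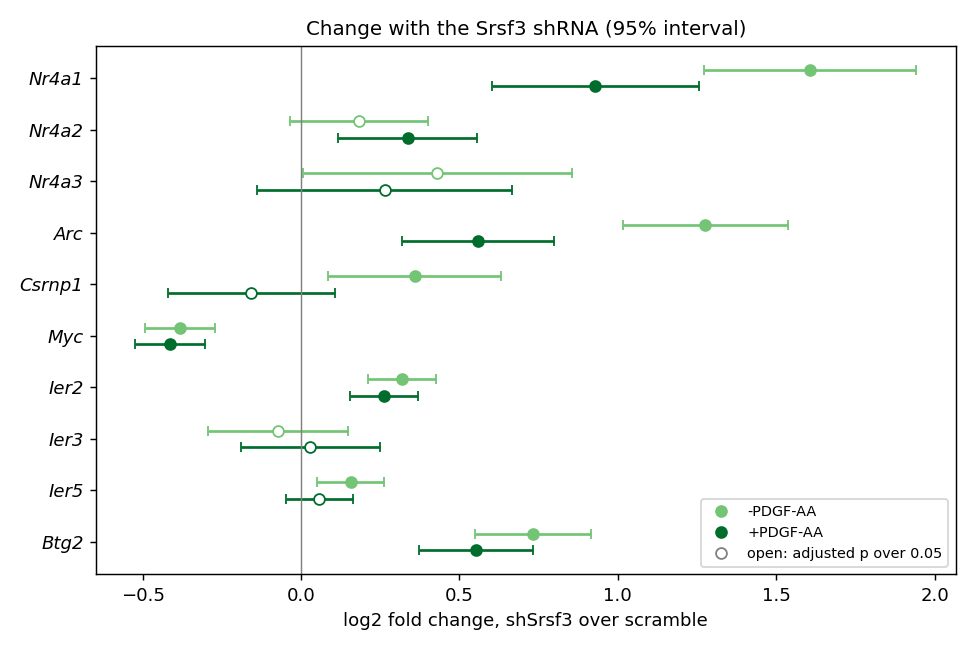
Log2 fold change of each gene in shSrsf3 relative to scramble cells, without and with PDGF-AA, with 95% intervals and open symbols for an adjusted p over 0.05. *Myc* is the only gene whose intervals both lie below 0, at -0.38 and -0.41, and the values of *Nr4a1* and *Arc* are 1.61 and 1.28 without and 0.93 and 0.56 with ligand.

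Levels across the 12 samples were compared between genes by Pearson's r of log2 CPM, as a description in which the 4 group means enter. *Arc* and *Nr4a1* were the most alike of the 10 (r = 0.99), and *Btg2* (r = 0.97) and *Ier2* (r = 0.96) were also closest to *Nr4a1* among them. *Myc* was apart, with r between -0.62 (with *Ier2*) and 0.18 (with *Ier3*). Among all other tested genes, the closest to *Arc* was *Noct*, encoding nocturnin (r = 0.98), and the closest to both *Nr4a1* (r = 0.97) and *Ier2* (r = 0.98) was *Trib1*, a pseudokinase gene. *Hbegf*, which encodes a ligand of the EGF receptor, was closest to *Ier5* (r = 0.99) and *Nr4a3* (r = 0.93), and *Irf2bp2* was closest to *Btg2* (r = 0.98). *Ier3* was nearest to *Smad7* (r = 0.94), *Csrnp1* to *Ablim1* (r = 0.97), *Nr4a2* to *Gclm* (r = 0.91), and *Myc* to *Ssr1* (r = 0.97).

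Of 13 listed relatives of the 10 genes, 10 could be tested, and their median log2 fold change with ligand in scramble cells was 0.12. In scramble cells 2 were higher with ligand (2.00% of all genes), *Mycn* (log2 fold change 0.57) and *Ier5l* (0.29). There 1, *Rxrb*, was lower (-0.15, where 2.04% of all genes were lower), while 0 passed in shSrsf3 cells. Between lines without ligand, 1 was higher (22.2% of all genes) and 4 were lower (23.7%). *Btg1*, a close homolog of *Btg2*, was lower in shSrsf3 cells (-0.25, adjusted p = 3.62e-04), as were *Ier5l* (-0.32), *Mycn* (-0.37), and *Tob1* (-0.20), and *Tob2* was higher (0.41). With ligand 2 were higher (20.3% of all genes), *Tob2* (0.38) and *Rxra* (0.12), and 3 were lower (20.7%), *Btg1* (-0.31), *Ier5l* (-0.38), and *Mycn* (-0.60).

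MAX-network partners and targets were set beside *Myc*. Of 9 tested partners, 3 were lower with ligand in scramble cells (2.04% of all genes) and 0 passed in shSrsf3 cells. The 3 were *Mxd4* (-0.21), *Mxi1* (-0.24), and *Mxd1* (-0.33), all of which encode MAX-binding repressors. Between lines without ligand, *Mxd4* (-0.55), *Mxi1* (-0.47), and *Mnt* (-0.31) were lower and *Mxd3* was higher (0.22). With ligand, 2 were lower, *Mxd4* and *Mxi1*, and 1 was higher, *Mxd3*. Of 20 targets, 2 were higher with ligand in scramble cells (2.00% of all genes), the ribosome biogenesis genes *Nop56* (0.24) and *Rrs1* (0.20), and 0 in shSrsf3 cells. Between lines without ligand 4 targets were higher and 3 lower, with the smallest adjusted p for *Wdr12* (0.47) and *Bop1* (-0.21). With ligand 1 was higher, *Wdr12*, and 5 were lower. Without ligand 22.2% of all genes were higher and 23.7% lower, and with ligand 20.3% and 20.7%, so that the counts of targets do not set them apart from other genes.

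Genes of the pathway upstream and beside the 10 were counted in the same fits. Among 60 other early genes, 32 were higher (2.00% of all genes) and 0 lower with ligand in scramble cells, with a median log2 fold change of 0.33. The smallest adjusted p values were those of *Klf10* (1.39), *Egr3* (2.41), *Plk3* (0.85), and *Zfp36l2* (0.78). In shSrsf3 cells 19 were higher (0.426% of all genes), with a median of 0.21. In these cells 1, *Fos*, was lower (-0.58, adjusted p = 0.0128, where 0.140% of all genes were lower). Between lines 32 were higher and 8 lower without ligand, led by *Dusp6* (0.99) and *Dusp5* (1.15), phosphatase genes that act on ERK, and 20 were higher and 10 lower with ligand. Of all genes, 22.2% were higher and 23.7% lower between lines without ligand, and 20.3% and 20.7% with it. Of 18 genes for ERK and CREB relays, 0 passed with ligand in either line, 7 were higher and 3 lower between lines without ligand, and 8 were higher and 3 lower with it. *Rps6ka2*, encoding an ERK-activated kinase, had the smallest adjusted p of these in both (0.89 and 0.86). Of 6 PDGF ligands and receptors, *Pdgfra* was lower with ligand in scramble cells (-0.30) and between lines (-0.53 without and -0.36 with ligand). *Pdgfc* and *Pdgfb* were also lower between lines with and without ligand, and *Pdgfd* was higher without it (0.24). The interaction was called for 0 genes of these lists.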

How the data were processed

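RNA-seq was performed on 12 samples of stranded, poly(A)-selected libraries, assigned to 4 groups by their labels. The authors used Salmon 1.4.0 and the GENCODE M26 transcripts of GRCm39, then obtained gene values with tximport, whose version and scaling are not given in the sources used here. The deposited values are estimated counts, not normalized; 16.3% were not whole, and all were rounded. Genes were filtered with filterByExpr (minimum count 10) and tested across all 12 samples by the quasi-likelihood test of edgeR 4.0.16 (R 4.3.3, TMM factors, a mean per group) with Benjamini-Hochberg adjustment over 15037 genes. Every adjusted p is from this fit unless DESeq2 (1.42.0) is named. CPM values use TMM factors. With 3 against 3, an exact permutation test cannot go below p = 0.1. Same-numbered replicates did not deviate together, so that numbers were not used as pairs. Lengths, overlaps, and promoters were taken from a later GENCODE release of the same build (M39). The genes, lists, and alternatives were chosen with earlier results of these data known. At most 4 genes per list were to be named, those of smallest adjusted p in the comparison described. Where up to 5 genes of a list passed in a direction, all were named, a choice that followed the values. *Fos* was named in this way. The mapping rates that set 3 libraries apart were those given in the study. Figures were drawn with matplotlib 3.10.9.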

Additional observations from a re-analysis of the deposited data

How the results depend on the processing

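Each of 50 log2 fold changes and the 5 counts of genes past the threshold were recomputed under 19 alternatives, among them DESeq2 size factors, no low-count filter, DESeq2's test, libraries thinned to equal depth, and leaving out each library. Of 950 recomputed fold changes, 870 kept direction and side of the threshold, 21 lost and 38 gained a call, and 21 changed sign. With a 2-fold minimum the counts were 2 of 10 (ligand, scramble), 0 (ligand, shSrsf3), 2 (between lines without ligand), and 0 (with ligand). The ligand count in shSrsf3 cells, 3 as reported, was 7 without the low-count filter (a fit in which the SE of the *Nr4a1* interaction was 0.0673 instead of 0.214), 5 by DESeq2, 6 with a term for low mapping rate, and 5 without those 3 libraries. The interaction count, 0 as reported, was 3 without the low-count filter, 1 by DESeq2, and 2 with the term for low mapping rate. Leaving out 1 library gave 5 to 7 genes for the ligand in scramble, 0 to 5 for the ligand in shSrsf3, 5 to 8 and 5 to 6 between lines without and with ligand, and 0 for the interaction. With the replicate number as a replicate block, the counts were 6, 3, 7, 6, and 0, as without it. Same-numbered samples correlated between -0.14 and 0.20 in the scramble ligand comparison.

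All values that changed sign lay near 0. The ligand response of *Nr4a2* in scramble cells was 0.01 with DESeq2 size factors and by DESeq2, 0.00 without the low-count filter, 0.03 after thinning, 0.06 with the mapping term, 0.12 without the 3 libraries, and -0.07 to 0.05 leaving out 1 library. *Ier3* between lines without ligand was 0.10 with the mapping term, 0.08 without the 3 libraries, and -0.16 to 0.00 leaving out 1 library. Leaving out 1 library also gave -0.04 to 0.12 for *Ier3* between lines with ligand, and interactions of -0.09 to 0.02 for *Myc* and -0.38 to 0.00 for *Nr4a3*. The cause of these changes was not tested. *Nr4a3*, at 92 to 246 counts per library, was measured least precisely. As each shRNA had 1 transduced line, the replicates' spread does not cover separate transductions.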
